A study of Solanum lycopersicum x Solanum pennellii and Solanum lycopersicum with 7 samples.

Results

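The carotenoid cleavage dioxygenases are a family of 7 genes here, CCD1A, CCD1B, CCD4A, CCD7, CCD8, NCED1 and NCED2, taken by identifier from count tables of 34725 listed genes. All 7 identifiers were found, and 4 passed the filter on low counts and were tested, namely CCD1A (Solyc01g087250), CCD1B (Solyc01g087260), NCED1 (Solyc07g056570) and NCED2 (Solyc08g016720). The other 3, which failed it, were CCD4A (Solyc08g075480), CCD7 (Solyc01g090660) and CCD8 (Solyc08g066650). The tables pair no identifier with a name, so the 7 names follow the rule that defined the family. The counts came from leaf RNA of field-grown tomato plants, with 3 libraries of the introgression line IL2-6 and 3 of the introgression line IL3-2. Both lines carry a chromosome segment of the wild relative Solanum pennellii in a cultivated background, and IL2-6 is labelled as a line with enhanced biomass. The lines are named for segments of chromosomes 2 and 3, and none of the 7 genes carries either number in its identifier. A library of the cultivated control M82 was deposited as sequence variants, without expression values, and was not used here. The labels give neither plant age nor whether replicates are different plants, and the p-values may therefore reflect technical spread alone.

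These enzymes cut carotenoids, the coloured pigments of the plastid, into smaller apocarotenoids. CCD1 enzymes release volatiles such as the ionones that give flavour and scent, and CCD4 enzymes break down carotenoids inside the plastid. CCD7 and CCD8 act one after the other on the route to strigolactones, hormones that restrain shoot branching and are made largely in roots. The NCED enzymes cut cis-epoxycarotenoids to the precursor of abscisic acid (ABA), the hormone that closes stomata in dry conditions, and loss of tomato NCED1 gives the wilty notabilis mutant.

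Each IL2-6 library held 18479252 to 21320790 counts, and each IL3-2 library 28828109 to 40146308. The 4 identifiers taken as leaf markers were abundant in every library, with a summed level of 64976 to 67697 CPM (counts per 1000000 of the library total scaled by edgeR's TMM factors) in IL2-6 and 32569 to 36716 CPM in IL3-2. Most of this gap came from 1 gene on chromosome 2, with means of 27614 CPM in IL2-6 and 6742 CPM in IL3-2. The rest were 1.06-fold to 1.51-fold higher in IL2-6. Of the 4, 3 were called higher in IL2-6, as were 30.4% of all tested genes. Floral organ markers summed to 32.2 to 32.7 CPM in IL2-6 and 28.4 to 28.9 CPM in IL3-2, mostly from 1 of 4 genes, which was called higher in IL2-6. Of 2 ripe fruit markers, 1 had no count in any library, and the sum ran from 6.30 to 7.47 CPM in IL2-6 and from 6.31 to 7.23 CPM in IL3-2. The part of these marker levels in the results was not tested. The sample descriptions carry lane and flow cell codes for IL3-2 and none for IL2-6, and the labels name an unstranded and a stranded kit without assigning them. Line and library batch therefore cannot be told apart.

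The comparison of the lines asked which of the family's genes differ in leaf abundance between IL2-6 and IL3-2. CCD1B, the volatile-forming enzyme with most of the family's reads, and NCED1, the ABA-forming enzyme, were higher in IL2-6 by 1.32-fold and 1.20-fold. CCD1A and NCED2 did not pass the test, and CCD4A, CCD7 and CCD8 were all but uncounted in both lines. Thus 2 of the 4 tested genes were called, both higher in IL2-6, where 63.3% of all tested genes were called and 30.4% were called higher in IL2-6 (edgeR quasi-likelihood test, p adjusted by Benjamini-Hochberg over 20823 tested genes, called under 0.05). In RNA of whole leaves, fewer cells that use a gene and less RNA of it per cell cannot be told apart. In all 4 tested genes the CPM of the lines did not overlap, which was also the case for 67.7% of all tested genes. Both counts are read against these shares, and with 4 genes neither is a result about the family.

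CCD1B had 834, 876 and 875 CPM in IL2-6 replicates 1, 2 and 3 and 652, 655 and 653 CPM in the IL3-2 replicates. Every IL2-6 library lay above every IL3-2 library, and the IL3-2 libraries were nearly level with each other. The means were 862 ± 23.9 and 654 ± 1.57 CPM (SD, n = 3 each). The log2 fold change, IL2-6 minus IL3-2, was 0.40 with a standard error of 0.04 and a 95% interval of 0.30 to 0.49 (edgeR adjusted p = 2.37e-06). In absolute size this change exceeded that of 56.7% of all tested genes, so it lay near the middle of the table.

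CCD1A, the other CCD1 gene and the identifier just before CCD1B on chromosome 1, had 52.6, 50.5 and 53.4 CPM in IL2-6 and 47.9, 47.9 and 48.7 CPM in IL3-2. The lines did not overlap, but the gap was small. The log2 fold change was 0.12 ± 0.05 (standard error; edgeR adjusted p = 0.0645), with a 95% interval before adjustment of 0.0047 to 0.23. The size of this change exceeded that of 20.2% of tested genes.

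**Figure D1:**
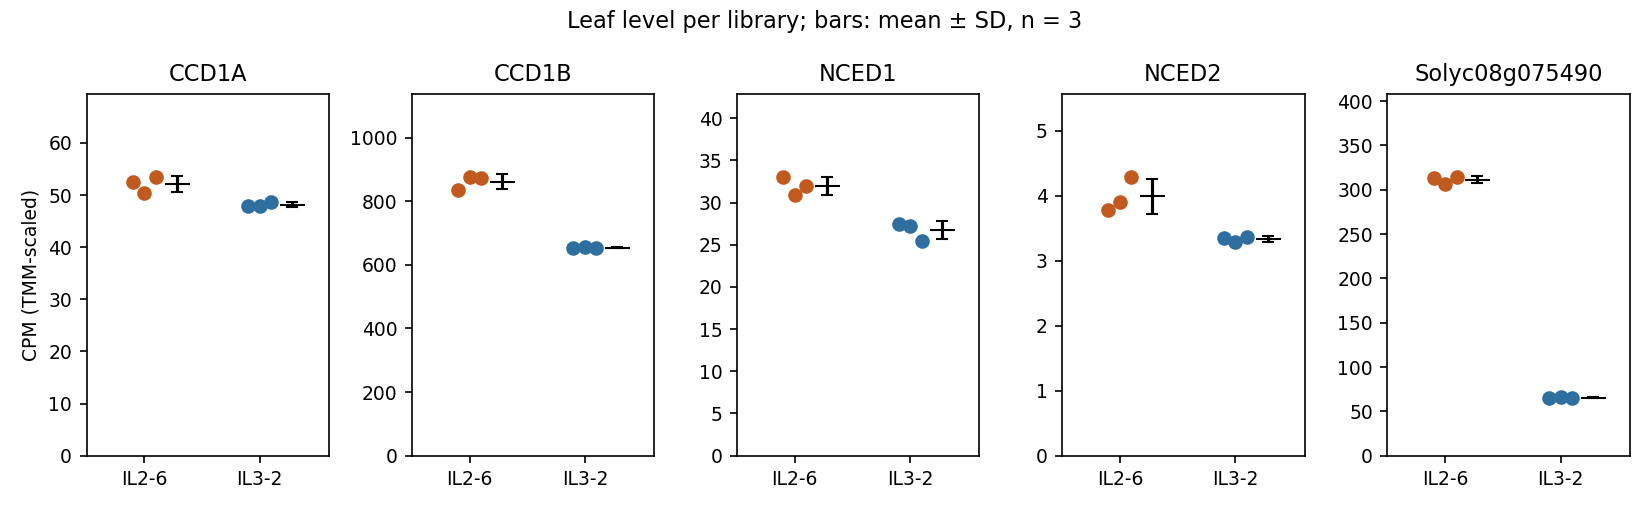
Level of the 4 tested genes and of Solyc08g075490, the identifier next to CCD4A, in each library, in CPM on linear axes that start at 0, with 1 point per library and the mean ± SD of 3 libraries beside the points. IL2-6 lies above IL3-2 in each panel, by a small gap for CCD1A and a wide one for Solyc08g075490.

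The balance between the CCD1 genes does not depend on how libraries are scaled. CCD1B took 94.1%, 94.6% and 94.2% of the pair's counts in IL2-6 and 93.2%, 93.2% and 93.1% in IL3-2. The exact 95% binomial intervals of the IL2-6 libraries began at 93.7% or above, and those of the IL3-2 libraries ended at 93.5% or below. The intervals cover counting error only. The mean share was 94.3 ± 0.246% in IL2-6 and 93.1 ± 0.0690% in IL3-2, a difference of 1.148 percentage points (SD, n = 3 each, two-sided exact permutation test p = 0.1, the smallest p this design allows). Expressed as a ratio, there were 16.5 ± 0.765 CCD1B counts for each CCD1A count in IL2-6 and 13.6 ± 0.146 in IL3-2. The shares compare counts, not transcripts, because gene lengths were not used here. Reads that match both copies may have been dropped or split in the authors' counting, so both single values are uncertain. With the counts of both genes summed to 1 gene, an alternative chosen after the data were seen, the log2 fold change was 0.38 ± 0.04 (standard error; edgeR adjusted p = 3.45e-06).

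**Figure D2:**
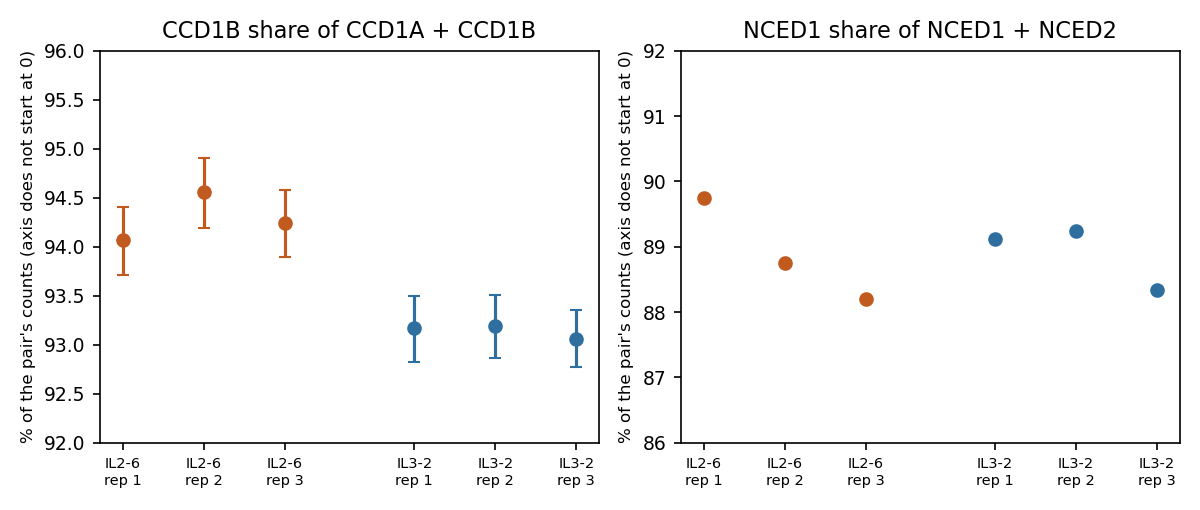
Share of CCD1B in the counts of CCD1A and CCD1B (left, with exact 95% binomial intervals) and share of NCED1 in the counts of NCED1 and NCED2 (right), in percent for each library, on axes that do not start at 0. The CCD1B share is above 94% in the IL2-6 libraries and near 93% in the IL3-2 libraries, while the NCED1 shares of the lines overlap.

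NCED1, the enzyme whose loss makes tomato plants wilt, had 33.0, 30.9 and 32.0 CPM in IL2-6 and 27.5, 27.2 and 25.5 CPM in IL3-2. The lines did not overlap, and the spread within each was small beside the gap. The means were 32.0 ± 1.08 and 26.7 ± 1.09 CPM (SD, n = 3 each). The log2 fold change was 0.26 ± 0.06 (standard error), with a 95% interval of 0.13 to 0.39 (edgeR adjusted p = 0.00179). This call was lost when libraries were scaled by their raw totals, with a log2 fold change of 0.10 (edgeR adjusted p = 0.182).

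NCED2, the second NCED gene of the family, was counted far less often, with 77, 67 and 85 reads in IL2-6 and 102, 113 and 142 in IL3-2. Its level was 3.77, 3.91 and 4.29 CPM in IL2-6 and 3.35, 3.29 and 3.36 CPM in IL3-2. The lines did not overlap, though the lowest IL2-6 library was close to the highest IL3-2 library. The log2 fold change of 0.26 was the size of that of NCED1, but its standard error was 0.13 and the 95% interval ran from −0.01 to 0.53 (edgeR adjusted p = 0.085). A difference of this size can be missed at this depth.

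The proportion of the NCED genes was close in both lines. NCED1 took 89.7%, 88.8% and 88.2% of the pair's counts in IL2-6 and 89.1%, 89.2% and 88.3% in IL3-2. The means were 88.9 ± 0.786% and 88.9 ± 0.488% (SD, n = 3 each, two-sided exact permutation test p = 1). The values of the lines interleaved, unlike the CCD1B shares, which did not overlap.

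Spread between libraries of a line was small for these genes. Coefficients of variation ran from 2.78% to 6.66% in IL2-6 and from 0.241% to 4.06% in IL3-2, with NCED2 highest in IL2-6 and NCED1 highest in IL3-2. For CCD1A, NCED1 and NCED2 the replicate counts of a line deviated from equal levels by a chi-square of at most 3.37 on 2 degrees of freedom. CCD1B reached 26.2 in IL2-6, where replicate 1 was the low library, and 0.259 in IL3-2.

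The strigolactone enzymes CCD7 and CCD8 were at or near the limit of detection. CCD7 had no read in any of the 6 libraries. CCD8 had 1 read, in IL2-6 replicate 2, and none in IL3-2. A count of 0 allows up to 3 counts, a one-sided limit that corresponds to 0.0523 CPM over the IL2-6 libraries and 0.028 CPM over the IL3-2 libraries. The single CCD8 read is 0.0174 CPM over the IL2-6 libraries, with a two-sided exact 95% Poisson interval of 0.000441 to 0.0971 CPM that covers counting error only. These genes failed the filter on low counts, and no difference between the lines was detectable for them at this depth.

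CCD4A, the plastid enzyme, was counted once as well, in IL3-2 replicate 3, and not at all in IL2-6. The next identifier on chromosome 8, Solyc08g075490, had 17880 reads in IL2-6 and 6999 in IL3-2. It was on a list of further family members drawn up from general knowledge, was singled out here after its values had been seen, and has no name in the deposited tables. Its level was 313, 306 and 314 CPM in IL2-6 and 65.2, 65.7 and 65.2 CPM in IL3-2. The lines stood far apart and the libraries of each line were close together. The log2 fold change was 2.25 ± 0.05 (standard error), a 4.76-fold difference (edgeR adjusted p = 3.46e-14), and 94.3% of tested genes changed by less. Of all tested genes, 4.89% were called and at least 2-fold higher in IL2-6. Whether reads from one of these adjacent genes could be counted for the other was not tested.

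**Figure D3:**
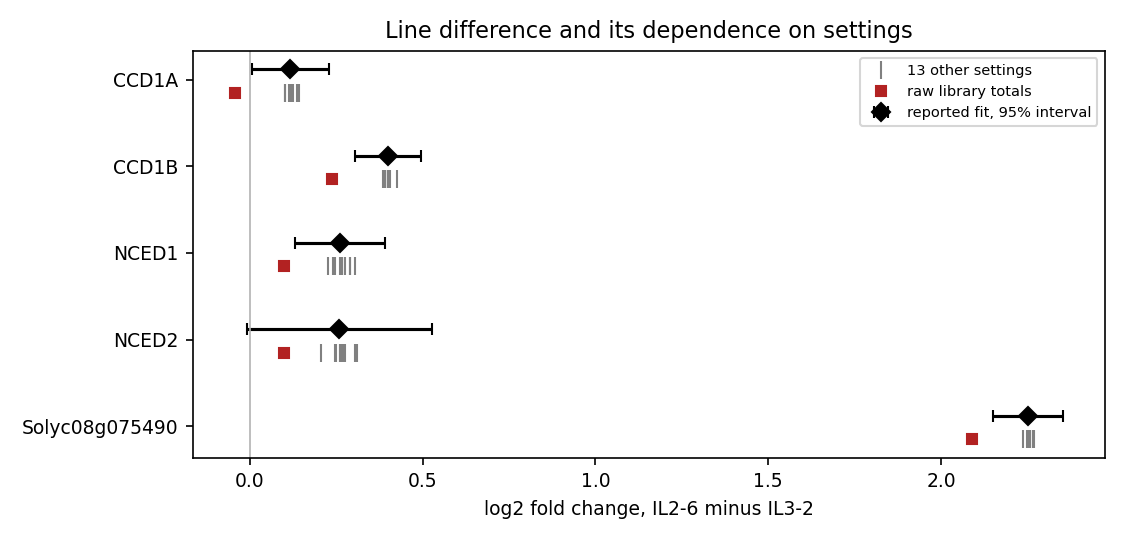
Log2 fold change, IL2-6 minus IL3-2, of the 4 tested genes and of Solyc08g075490 in the reported fit (diamonds, with 95% intervals), with raw library totals (squares) and under the 13 other settings (ticks). Raw totals move every gene to the left, and CCD1A crosses 0, from 0.12 to −0.04.

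All the fold changes rest on the scaling between lines. Without TMM factors the median log2 fold change of all tested genes moved by −0.16, from −0.01 to −0.17, and CCD1A turned to −0.04 (edgeR adjusted p = 0.48). Relative to the median of all tested genes, CCD1A was at 0.13, CCD1B at 0.41, NCED1 at 0.27 and NCED2 at 0.27 on the log2 scale under both scalings. The equal values follow by construction, because a change of scaling shifts all genes alike, and are no check of the results. CCD1B was called under each of the 14 alternatives tried, with log2 fold changes of 0.24 to 0.43.

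The surroundings of the genes in identifier order did not share one pattern. Of the 10 tested genes nearest to CCD1B, which include CCD1A, 2 were called higher and 1 lower in IL2-6, and none by 2-fold. The 10 nearest to Solyc08g075490 held 5 called higher and 1 called lower, with a largest log2 fold change of 0.87 against 2.25 for Solyc08g075490 itself. Around NCED1, 3 were higher and 2 lower, and 2 of them differed by at least 2-fold. Around NCED2, 5 were higher and 3 lower, and 5 of the 10 differed by at least 2-fold, with log2 fold changes from −7.38 to 4.55. Such 2-fold calls made up 17.0% of all tested genes, and those higher in IL2-6 made up 4.89%. Calls of any size were higher in IL2-6 for 30.4% of all tested genes and lower for 33.0%.

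**Figure D4:**
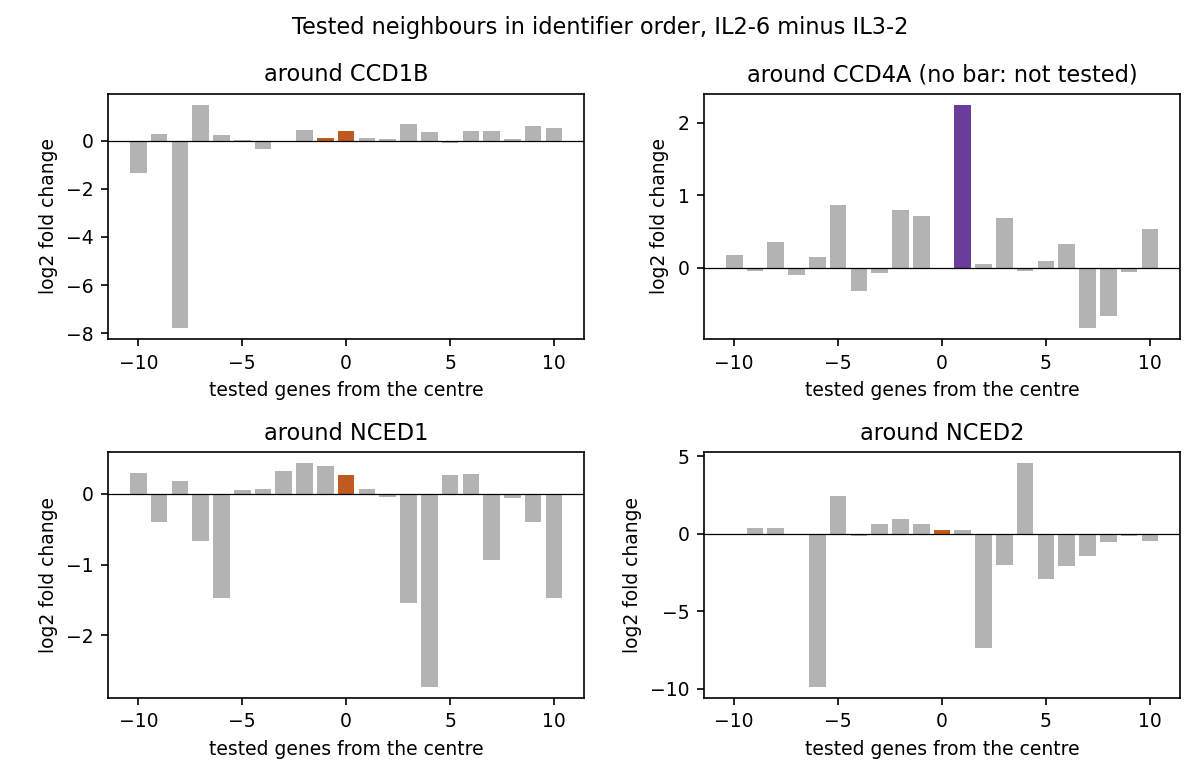
Log2 fold change, IL2-6 minus IL3-2, of the tested genes up to 10 places either side of CCD1B, CCD4A, NCED1 and NCED2 in identifier order, with family members in orange, Solyc08g075490 in purple and scales that differ between panels. Solyc08g075490 exceeds its neighbours, and the panel around NCED2 holds both small differences and some beyond 4 on the log2 scale. The panel around CCD1B holds a difference of −7.79, at 8 places before CCD1B.

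The pathway around the family was described with 6 lists of 41 identifiers in all, drawn up from general knowledge of tomato genes with earlier results of these data known. The tables hold no annotation against which to check them, so only counts and ranges are given. Of 39 list genes tested, IL2-6 had the higher level in 20 and IL3-2 in 7 by the test, or 51.3% and 17.9%, where 30.4% and 33.0% of all tested genes were called in these directions. The median log2 fold change was 0.18 over the list genes and −0.01 over all tested genes. With raw library totals, 15 list genes were called higher in IL2-6 and 27 were called in all, where 19.1% of all tested genes were called higher in IL2-6, 45.9% higher in IL3-2 and 65.0% in all. Of the 28 tested list genes away from chromosomes 2 and 3, 12 were higher in IL2-6 and 5 in IL3-2.

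Genes that supply the carotenoid substrate, from phytoene synthesis to the epoxycarotenoids, were called higher in IL2-6 in 9 of 14 cases and lower in none, beside 30.4% and 33.0% of all tested genes. On chromosomes 2 and 3, which the lines are named for, 6 of 7 were higher, and elsewhere 3 of 7. Their log2 fold changes ran from −0.12 to 1.32, with a median of 0.30. With raw library totals, 7 were higher and 2 lower, with a median of 0.14, beside 19.1% and 45.9% of all tested genes and their median of −0.17. The other family list, of 2 genes, had both called and at least 2-fold higher in IL2-6, Solyc08g075490 among them. Of all tested genes, 4.89% were called so. The second gene of this list had few reads, with 16, 20 and 19 in IL2-6 and 11, 11 and 23 in IL3-2. Its log2 fold change was 1.19 ± 0.30 (standard error), so a difference smaller than 2-fold is not excluded for it.

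The counts of the 3 ABA lists stand beside 30.4% of all tested genes called higher in IL2-6 and 33.0% called lower. With raw totals these shares were 19.1% and 45.9%. Downstream of NCED, the 3 genes listed for the later steps of ABA synthesis had 1 called higher, 1 called lower and 1 not called. Their log2 fold changes were −0.24 to 0.32, and with raw totals 2 were called lower and none higher. Of 4 genes listed for ABA breakdown, 3 were higher in IL2-6 and 1 was lower, with a range of −0.33 to 1.11 and a median of 0.89, and 2 were higher and 1 lower with raw totals. Their summed level was 62.9 to 66.3 CPM in IL2-6 and 32.6 to 36.6 CPM in IL3-2. Among 12 tested genes of ABA perception and response, 5 were higher, 3 were lower and 4 were not called. Their log2 fold changes ran widely, from −0.40 to 7.22. Of them, 2 were called and at least 2-fold higher in IL2-6, as were 4.89% of all tested genes, and none was 2-fold lower. The median of 0.04 turned to −0.12 with raw totals, under which 4 were higher and 4 lower.

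Of the 4 tested genes on the strigolactone list, 2 were called lower in IL2-6 and none higher, with a median log2 fold change of −0.20 and a range of −0.41 to −0.02, where 33.0% of all tested genes were called lower in IL2-6. With raw totals 3 of the 4 were lower, as were 45.9% of all tested genes. The largest of these differences, at Solyc02g084930, was −0.41 ± 0.06 (standard error; edgeR adjusted p = 3.43e-05), from 29.1 ± 1.16 CPM in IL2-6 to 38.8 ± 1.43 CPM in IL3-2 (SD, n = 3 each). Solyc02g084930 is on chromosome 2, the chromosome IL2-6 is named for. Away from chromosomes 2 and 3, 1 of 3 tested genes of the strigolactone list was called lower and none higher. The difference in direction between the lists was not tested.

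**Figure D5:**
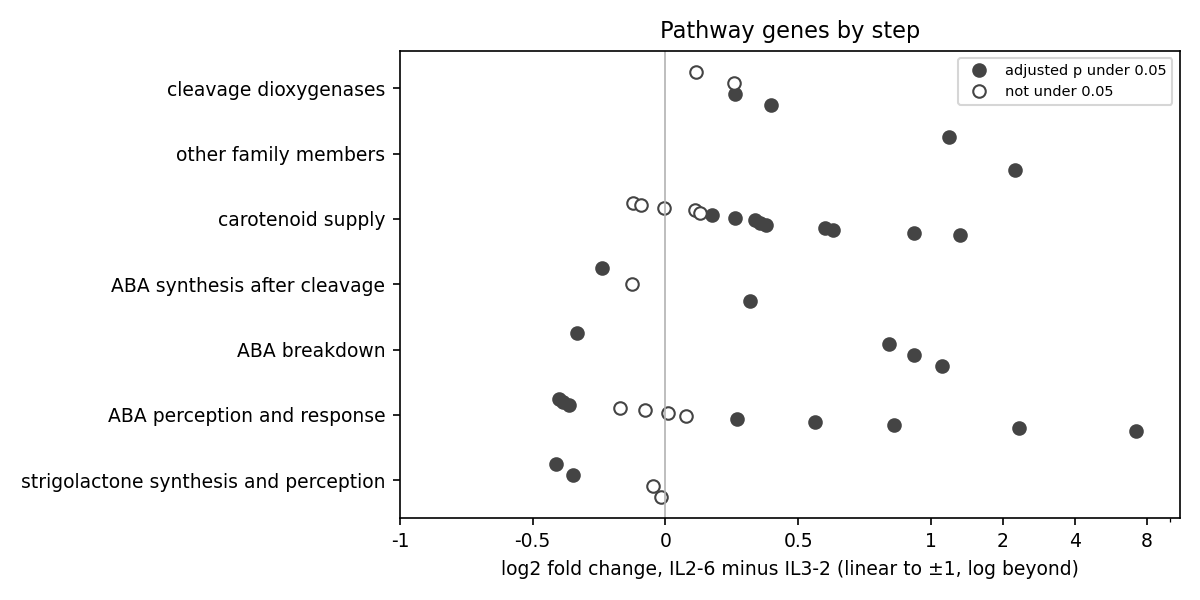
Log2 fold change, IL2-6 minus IL3-2, of each tested gene by pathway step, on an axis that is linear between −1 and 1 and logarithmic beyond. Filled points have an edgeR adjusted p under 0.05. In the substrate supply list 9 of 14 points are filled and all 9 lie to the right of 0, and the 2 filled points of the strigolactone list lie to its left.

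Each tested member had genes that followed it across the 6 libraries, which are 2 groups of 3. Pearson's r of log2 CPM with the closest of 20822 other genes was 0.996 for CCD1A, 0.9998 for CCD1B, 0.997 for NCED1 and 0.995 for NCED2. For CCD1B, 15.03% of those genes had an r above 0.95, against 1.72% for CCD1A, 3.44% for NCED1 and 2.19% for NCED2. These are descriptions over libraries that share a line and a depth, and the closest genes carry no name in the tables. With 2 groups of 3, a high r can reflect the gap between the lines alone. The CPM of the lines did not overlap for 67.7% of all tested genes.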

How the data were processed

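Leaf RNA of 3 IL2-6 and 3 IL3-2 libraries was measured by sequencing, grouped by the line in the sample titles. The deposited values are raw counts, 1 table per library, with no normalization. Tools named in the submitters' processing notes, with no role, are TopHat2 and HTSeq, SAMtools 1.9, edgeR, Trimmomatic and CASAVA 1.8.2. For the counts, the genome build, annotation and strand setting were not given in the sources used here.

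Genes were kept with edgeR's filterByExpr by line, which left 20823, and scaled with TMM factors of 0.928 to 0.958 (IL2-6) and 1.05 to 1.06 (IL3-2). Lines were compared by the quasi-likelihood test of edgeR 4.0.16 in R 4.3.3 with line as the only term and Benjamini-Hochberg adjustment over all tested genes, called at an adjusted p under 0.05. The script was tested on simulated data with few changed genes and no shift between lines, so that test does not cover the scaling between lines. CPM are counts per 1000000 of the TMM-scaled total. The biological coefficient of variation was 5.92%. Libraries of a line differed by 2.33 to 11.2 per degree of freedom in a chi-square test of counts, more than 1 library deposited again would, so none were merged. Alternatives were other scalings, no filter, DESeq2 1.42.0, limma-voom (limma 3.58.1), a replicate block, thinning to 18479252 counts and leaving out each library.

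The members and lists were chosen with earlier results of these data known. All 7 members are named, and list genes were to be named only with an annotation, which was not used here. Solyc08g075490, Solyc02g084850 and Solyc02g084930 were singled out after their values were seen. No sequences or coordinates are given.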

Additional observations from a re-analysis of the deposited data

How the results depend on the processing

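Of 133 values recomputed for 10 results, 130 had the reported direction and call, or a count within 1.5 times the reported one. The 7 values for the CCD1B share could differ in direction only, because their permutation p cannot fall under 0.1. For CCD1A and NCED2 the reported state was no call, so values that stayed uncalled were counted as the same. The 3 exceptions all came from raw library totals: 1 of the family's genes was called instead of 2, NCED1 had a log2 fold change of 0.0997 and CCD1A one of −0.0447. By construction, the shift that raw totals bring is common to all genes. Leaving out 1 library at a time, log2 fold changes ran from 0.102 to 0.143 for CCD1A, 0.391 to 0.426 for CCD1B, 0.227 to 0.290 for NCED1 and 0.206 to 0.304 for NCED2, 2 family genes were called each time, and 23 to 29 list genes. The CCD1B share differed by 1.02 to 1.26 percentage points.

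No pairing by replicate number was seen, as deviations of same-numbered libraries correlated at −0.106 to −0.00477. A fit with a replicate block called 2 family genes and 26 list genes and gave NCED1 an edgeR adjusted p of 0.00668. At this depth a gene with as few reads as NCED2 has a standard error of 0.13 on the log2 scale, so differences near 1.2-fold can be missed. The alternatives for Solyc08g075490 and for the summed CCD1 genes were chosen after the data were seen.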

Other observations

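On the list of ABA perception and response, Solyc02g084850 had 707, 219 and 83 reads in IL2-6 replicates 1, 2 and 3, or 34.6, 12.8 and 4.18 CPM, and 6, 1 and 5 reads in IL3-2. Every IL2-6 library lay above every IL3-2 library, with a log2 fold change of 7.22 ± 0.87 (standard error; edgeR adjusted p = 5.02e-06). Leaving out 1 library at a time, it ran from 6.17, without IL2-6 replicate 1, to 7.72, without IL3-2 replicate 1. NCED1 in the same IL2-6 libraries stayed between 30.9 and 33.0 CPM, and a link between these genes was not tested. Solyc02g084850 is on chromosome 2, the chromosome IL2-6 is named for. Another gene of the list, on chromosome 10 and too low to be tested, had 77, 29 and 7 reads in IL2-6 and 3, 1 and 0 in IL3-2. Both were singled out after their values were seen. Of the 12 tested genes of this list, 5 were called higher and 3 lower in IL2-6, beside 30.4% and 33.0% of all tested genes.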
